A study of Homo sapiens with 6 samples.

Results

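Aminoacyl-tRNA synthetases join each amino acid to its transfer RNA, the step that supplies charged tRNA to the ribosome. For most amino acids, human cells keep separate enzymes, encoded by different nuclear genes, for translation in the cytosol and in the mitochondria. Several cytosolic enzymes sit in a multi-synthetase complex held together by the scaffold proteins AIMP1 and AIMP2. Many cytosolic synthetase genes are known targets of the transcription factor ATF4, which is made when amino acids run short or the endoplasmic reticulum is stressed. The genes described here are 37 in number: 19 cytosolic enzymes, 16 mitochondrial enzymes and 2 scaffolds. The members are defined by gene symbol and function, and the set was proposed with earlier results of these data known. Of these, 36 had at least 1 probe set that names that gene alone, 93 probe sets in all out of 49293 that are not array controls, and they stand among 18132 genes measured. AIMP2 had none and was not analysed here.

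The values come from HCT116, an established human colorectal cancer cell line. Total RNA was taken 72 h after transduction with lentivirus carrying a short hairpin RNA, either a control hairpin (sh-Ctrl, 3 arrays) or a hairpin against PNO1 (sh-PNO1, 3 arrays). PNO1 is a factor needed to mature the small ribosomal subunit. All 6 samples are the same line, all received lentivirus, and the labels name a single hairpin against PNO1. Nothing in the labels says that the replicates were separate cultures, so the p-values reflect array-to-array spread alone, and that spread may be technical only. The number of arrays limits the precision.

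PNO1 itself read 535, 535 and 532 on the sh-Ctrl arrays and 105, 108 and 105 on the sh-PNO1 arrays, in linear intensity units. The sh-PNO1 arrays kept 19.8% of the control signal (log2 change −2.33 ± 0.04 SE; exact two-sided permutation p = 0.1, the smallest that 3 arrays against 3 allow). Of 9 colorectal epithelial markers, EPCAM, KRT8, KRT18 and KRT19 were bright, with sh-Ctrl means of 1878 to 2469, whereas VIL1 (4.88), LGALS4 (8.99) and CDX1 (23.0) were dim. KRT19 (0.37) and CDH1 (0.31) rose in sh-PNO1. The 7 fibroblast markers had sh-Ctrl means of 3.52 to 22.7 and the 5 measured blood and endothelial markers 3.79 to 35.7. By limma 0 of either list passed, with 2 fibroblast markers and 1 blood or endothelial marker at an unadjusted p under 0.05. In bulk RNA, fewer cells and less RNA per cell cannot be told apart. The array sh-PNO1 replicate 2 had the widest gap between the signals of the 3′ and 5′ ends of ACTB, a log2 difference of 2.25 where the remaining arrays had 1.73 to 1.87. Without it 20 synthetase genes passed in place of 21, and the lost call was that of PARS2.

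Most of the cytosolic enzymes that moved went up, and 1 went sharply down. Of the 19 cytosolic genes 10 rose, 1 fell and 8 did not pass, a gene being counted when its brightest probe set had a limma adjusted p under 0.05. The largest rises were those of HARS1, SARS1 and QARS1, each between 26.1% and 40.0% above control. YARS1, the tyrosyl-tRNA synthetase, fell by 41.0%. With the most variable probe set of each gene 9 cytosolic genes rose and 3 fell. Those that fell were then YARS1, MARS1 (−0.21) and VARS1 (−0.21, limma adjusted p = 0.0179). With the trend and robust options of limma 11 rose and 2 fell. The 16 mitochondrial genes split, with 5 higher, 4 lower and 7 that did not pass. AIMP1 rose.

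These counts are to be read against a transcriptome in which many genes moved. Over all genes 34.1% passed, 20.0% higher and 14.2% lower. Bright genes passed more often: among the 3554 genes at least as bright as the dimmest cytosolic enzyme 34.6% were higher and 24.6% lower, and among the 9115 genes at least as bright as the dimmest mitochondrial enzyme 31.8% were higher and 23.1% lower. This comparison by brightness was chosen after seeing the data. The share of cytosolic enzymes that passed at all, 57.9%, was thus close to the 59.2% among genes of that brightness, and the share of mitochondrial enzymes, 56.3%, close to 54.9%. The split of the mitochondrial enzymes, 31.3% higher and 4 of 16 lower, was also close to that of genes of their brightness. Of the cytosolic enzymes 52.6% were higher and 5.26% lower. No test of the list as a whole was made.

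The median log2 change was 0.16 for the cytosolic genes and 0.07 for the mitochondrial genes, and 0.03 over all genes tested. Measured per array against the sh-Ctrl mean of each gene, the cytosolic median stood at 0.17, 0.15 and 0.13 on the sh-PNO1 arrays. The mitochondrial median stood at 0.05, 0.08 and 0.10, lower than the cytosolic median on each of the 3 arrays. The cytosolic median depended on which probe set stood for a gene. It was 0.06 with all probe sets of a gene averaged and 0.09 with the most variable probe set, and the mitochondrial median was then 0.06 and 0.07.

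**Figure D1:**
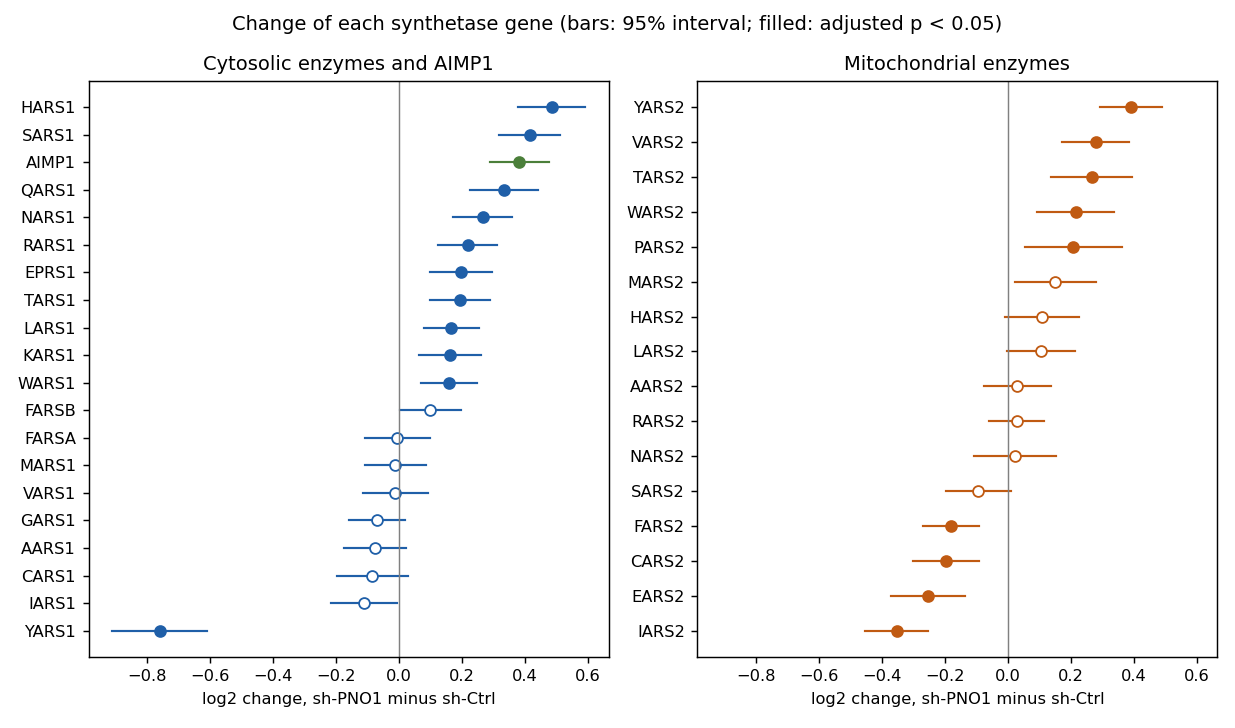
Log2 change (sh-PNO1 minus sh-Ctrl, n = 3 arrays each) of each gene's brightest probe set, with 95% intervals from limma; filled points had an adjusted p under 0.05. Of the cytosolic enzymes 10 lie to the right of 0 as filled points and only YARS1, at −0.76, lies to the left as one, while filled mitochondrial points lie on both sides, from −0.35 to 0.39.

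YARS1 showed the largest change of all 36 genes. YARS1 charges tRNA with tyrosine in the cytosol and acts as a homodimer outside the multi-synthetase complex. Its intensity was 472, 502 and 489 on the sh-Ctrl arrays and 274, 317 and 274 on the sh-PNO1 arrays (log2 change −0.76 ± 0.06 SE, limma adjusted p = 7.84e-05). The groups lay far apart, and the change ranked 295 from the most negative end of the 18132 genes. The value rests on 1 probe set of a kind that can match more than 1 transcript (suffix _s_at), and no other YARS1 probe set was there to set beside it. Leaving out such probe sets therefore leaves YARS1 without a value.

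YARS2, the mitochondrial tyrosyl-tRNA synthetase, moved the opposite way. It read 210, 207 and 210 on the sh-Ctrl arrays and 273, 264 and 285 on the sh-PNO1 arrays (0.39 ± 0.04 SE, adjusted p = 0.000270), also on a single probe set. No sh-PNO1 array came near a sh-Ctrl array. It had the largest rise among the mitochondrial enzymes.

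HARS1, the cytosolic histidyl-tRNA synthetase, had the largest rise of all members. It read 426, 441 and 430 on the sh-Ctrl arrays and 575, 615 and 626 on the sh-PNO1 arrays (0.49 ± 0.05 SE, adjusted p = 0.000132). All 3 of its probe sets rose, by 0.39 to 0.49. SARS1, the cytosolic seryl-tRNA synthetase, read 483, 499 and 491 against 677, 638 and 648 (0.41 ± 0.04 SE, adjusted p = 0.000176) on its only probe set. In both genes every sh-PNO1 array lay above every sh-Ctrl array. With YARS1 these were the 3 members that passed with a change of at least 0.4 in size. Of all genes 10.8% did so, 5.22% as higher and 5.59% as lower. Among genes at least as bright as the dimmest cytosolic enzyme 600 of 3554 did so. From the dimmest mitochondrial enzyme up it was 1658 of 9115.

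Enzymes of the multi-synthetase complex rose or did not pass. Of the 8 measured genes of this complex 6 rose and none fell: AIMP1, QARS1, RARS1, EPRS1, LARS1 and KARS1. Over all genes 20.0% were higher and 14.2% lower, and among genes at least as bright as the dimmest cytosolic enzyme 34.6% and 24.6%. With 8 genes and no test of the list, the count is a description. IARS1 (−0.11, adjusted p = 0.0952) and MARS1 (−0.01, adjusted p = 0.851) did not pass. In 4 of 18 alternative runs IARS1 passed as lower, among them limma with its trend and robust options (adjusted p = 0.0149). MARS1 passed as lower in 1 of 18, with its most variable probe set (−0.21, limma adjusted p = 0.00818). The median over the 8 was 0.18. IARS1, the isoleucyl-tRNA synthetase, read 2135, 2146 and 2068 on the sh-Ctrl arrays and 2053, 1911 and 1911 on the sh-PNO1 arrays. Every sh-PNO1 array was thus below every sh-Ctrl array, and the log2 change of IARS1 corresponds to −7.49%.

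AIMP1, a scaffold that also binds tRNA, read 578, 597 and 613 on the sh-Ctrl arrays and 785, 775 and 769 on the sh-PNO1 arrays (0.38 ± 0.04 SE, adjusted p = 0.000234). Of its 5 probe sets 4 rose and the remaining one stood at 0.10. QARS1, the glutaminyl-tRNA synthetase, for which the mitochondria use an indirect route instead of an enzyme of their own, read 491, 477 and 494 against 630, 582 and 632 (0.33 ± 0.05 SE, adjusted p = 0.000946). Its second, dimmer probe set stood at 0.18 and did not pass. EPRS1, a single protein that charges both glutamate and proline, rose by 0.20 ± 0.04 SE with both probe sets higher, and RARS1, for arginine, by 0.22 ± 0.04 SE, also with both. LARS1, the leucyl-tRNA synthetase, rose by 0.17 with 2 of 3 probe sets passing, though its most variable probe set alone stood at 0.09 (adjusted p = 0.417). KARS1, whose gene supplies the lysine enzyme of the cytosol and of the mitochondria, rose by 0.16 with both probe sets, but did not pass without sh-Ctrl replicate 1 (adjusted p = 0.0639) or without sh-Ctrl replicate 3 (0.0653).

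Among the cytosolic enzymes outside the complex, NARS1, for asparagine, rose by 0.26 ± 0.04 SE with 4 of 4 probe sets higher (0.26 to 0.32). TARS1, for threonine, rose by 0.19 ± 0.04 SE with 3 of 3 (0.19 to 0.30). WARS1, the tryptophan enzyme that interferon is known to induce, rose by 0.16 ± 0.04 SE on its brighter 2 probe sets, while the other 2 stood at −0.04 and −0.06 and the average of all 4 did not pass (0.06, adjusted p = 0.252). All probe sets thus moved together in NARS1 and TARS1, and did not in WARS1.

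The remaining cytosolic genes did not pass. AARS1 (−0.08, adjusted p = 0.210), CARS1 (−0.08, 0.227), GARS1 (−0.07, 0.196), VARS1 (−0.01, 0.856) and FARSA (−0.01, 0.932) had 95% intervals reaching from −0.20 to 0.10 between them. FARSB, which forms the phenylalanine enzyme with FARSA, stood at 0.10 (adjusted p = 0.104) and passed when limma was run with its trend and robust options (0.0272). A dimmer probe set fell in MARS1 (−0.21, adjusted p = 0.00904 over all probe sets) and in VARS1 (−0.21, 0.0213) while the brightest stood near 0. In none of the 36 genes did probe sets pass in opposite directions.

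The mitochondrial enzymes that fell were IARS2, EARS2, CARS2 and FARS2. IARS2, for isoleucine, read 423, 420 and 415 on the sh-Ctrl arrays and 344, 319 and 323 on the sh-PNO1 arrays (−0.35 ± 0.04 SE, adjusted p = 0.000495) on its only probe set, one of the _s_at kind. EARS2, which loads glutamate on to the mitochondrial tRNAs for glutamate and, in the indirect route, for glutamine, read 143, 140 and 139 against 110, 123 and 121 (−0.25 ± 0.05 SE, adjusted p = 0.00614). FARS2, for phenylalanine, read 115, 114 and 112 against 98.1, 100.1 and 102 (−0.18 ± 0.04 SE, adjusted p = 0.00747). In each of the 3 every sh-PNO1 array was below every sh-Ctrl array. Support across probe sets was uneven. All 4 EARS2 probe sets were negative (−0.25 to −0.18) and 2 passed, but once probe sets of suffix _x_at and _s_at were left out EARS2 stood at −0.18 (adjusted p = 0.257). CARS2, for cysteine, fell by 0.20 on its brightest probe set, whereas its other 2, both dim, stood at 0.01 and 0.02.

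Those that rose were YARS2, VARS2, TARS2, WARS2 and PARS2. VARS2, for valine, read 97.3, 93.1 and 88.8 on the sh-Ctrl arrays and 114, 112 and 112 on the sh-PNO1 arrays (0.28 ± 0.05 SE, adjusted p = 0.00206). Both VARS2 probe sets that passed carry the suffix _x_at, and without these VARS2 stood at 0.09 (adjusted p = 0.338). TARS2, for threonine, rose by 0.27 ± 0.06 SE, with its other probe set at 0.02. WARS2, for tryptophan, rose by 0.22 ± 0.05 SE on 1 of 4 probe sets, and the average of all 4 did not pass (0.12, adjusted p = 0.0719). PARS2, for proline, was the weakest call (0.21 ± 0.07 SE, adjusted p = 0.0443). It did not pass without sh-Ctrl replicate 2 (0.111), sh-Ctrl replicate 3 (0.140), sh-PNO1 replicate 2 (0.138) or sh-PNO1 replicate 3 (0.133), nor with the replicate number as a block (0.0819).

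MARS2 (0.15), HARS2 (0.11), LARS2 (0.10), AARS2 (0.03), RARS2 (0.03), NARS2 (0.02) and SARS2 (−0.09) did not pass, at adjusted p-values of 0.0725 to 0.788. In 3 of 18 alternative runs MARS2 passed as higher, among them limma with its trend and robust options (adjusted p = 0.0391). HARS2 passed as higher in 1 of 18. No mitochondrial enzyme had a group mean above all 23 background probe sets of the array, and 6 of the 19 cytosolic enzymes did. This is a high bar, since background group means ran from 2.52 to 804 and only 971 of the 18132 genes cleared it. By mean level the dimmest mitochondrial enzyme, AARS2, stood at percentile 49.7 of all genes, and the dimmest cytosolic enzyme, FARSA, at 80.4. Changes of genes near background can be understated.

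**Figure D2:**
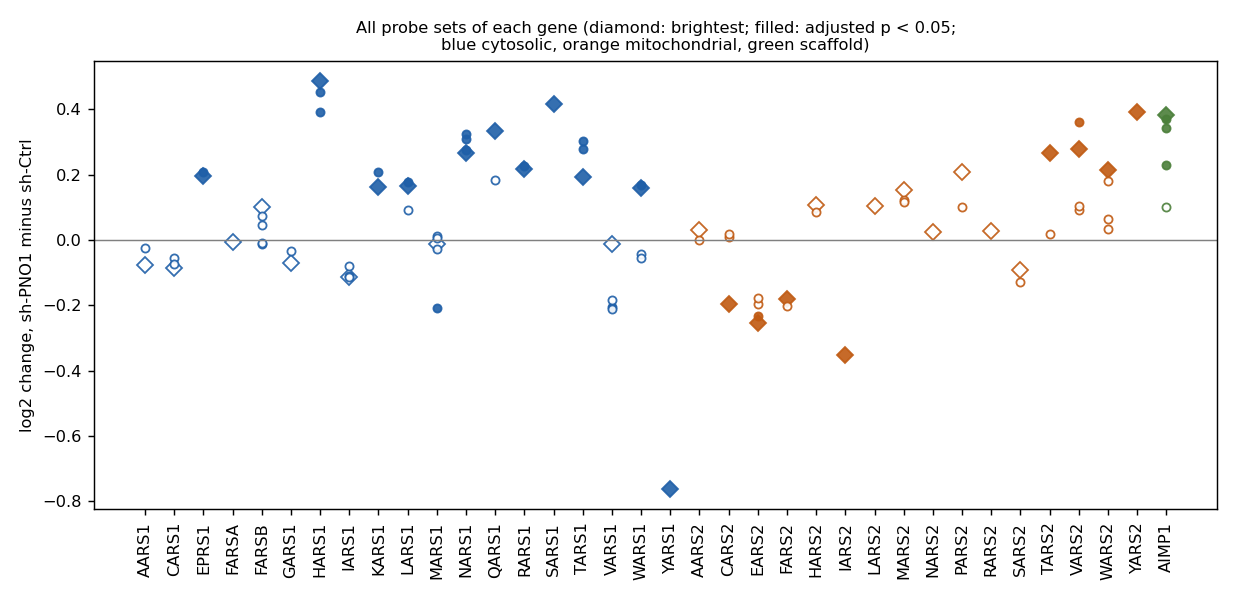
Log2 change of all 93 probe sets of the 36 genes, tested among all 49293 probe sets; diamonds mark the brightest probe set of each gene and filled symbols had an adjusted p under 0.05. The 3 HARS1 and 4 NARS1 probe sets cluster above 0, and YARS1, SARS1, IARS2 and YARS2 each rest on a single symbol.

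At the level of probe sets 39 of the 93 passed, 31 higher and 8 lower, against 28.0% of all probe sets (14.8% higher, 13.2% lower). The share among probe sets of like brightness was not computed, so this count is not read as particular to the members. Of the 28 genes with 2 or more probe sets, 6 rose with every probe set passing: EPRS1, HARS1, KARS1, NARS1, RARS1 and TARS1. In no gene with several probe sets did all of them pass as lower. Taking the arrays without a model, the groups did not overlap in 27 of the 36 genes, 19 higher and 8 lower in sh-PNO1, where 44.7% of all genes did not overlap, 26.3% higher and 18.4% lower. Among genes at least as bright as the dimmest cytosolic enzyme 76.4% did not overlap, and 68.7% among those at least as bright as the dimmest mitochondrial enzyme, so the 75.0% of members was near the share at like brightness.

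For most amino acids a cytosolic and a mitochondrial enzyme can be set against each other within the same array. The log2 ratio of the mitochondrial to the cytosolic gene was formed on each of the 6 arrays for 17 pairs, in which EPRS1 and FARS2 each appear more than once. In 11 pairs the ratio differed so that the groups of arrays did not overlap. In 8 of them the cytosolic gene had the more positive change and in 3 the mitochondrial gene. Single genes did not overlap in 44.7% of cases over all genes and in 76.4% or 68.7% at the brightness of these enzymes. The share among ratios of other genes was not computed, so neither the count nor its split is read as particular to the pairs. The exact two-sided permutation p was 0.1 in each of these 11, the smallest possible, and 0.155 after adjustment over the 17 pairs, so no pair passed a threshold of 0.05.

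The tyrosine pair stood farthest apart. The ratio of YARS2 to YARS1 rose by 1.15 ± 0.10 SE on the log2 scale, with YARS1 lower and YARS2 higher. In the serine pair the ratio of SARS2 to SARS1 changed by −0.51 ± 0.06 SE. SARS2 read 61.2, 61.5 and 62.3 on the sh-Ctrl arrays and 55.1, 58.8 and 59.7 on the sh-PNO1 arrays, so the cytosolic gene rose while the mitochondrial one stood slightly lower without passing. For glutamate the ratio of EARS2 to EPRS1 changed by −0.45 ± 0.07 SE, and these were the only other genes of a pair to pass in opposite directions. EPRS1 read 834, 807 and 791 against 957, 929 and 902. The valine (0.29) and methionine (0.16) pairs shifted toward the mitochondrial gene, and those of FARSB (−0.28), asparagine (−0.24), isoleucine (−0.24), arginine (−0.19) and FARSA (−0.18) toward the cytosolic gene. The alanine, cysteine, leucine, threonine and tryptophan pairs and EPRS1 with PARS2 overlapped, with changes of the ratio between −0.11 and 0.11.

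**Figure D3:**
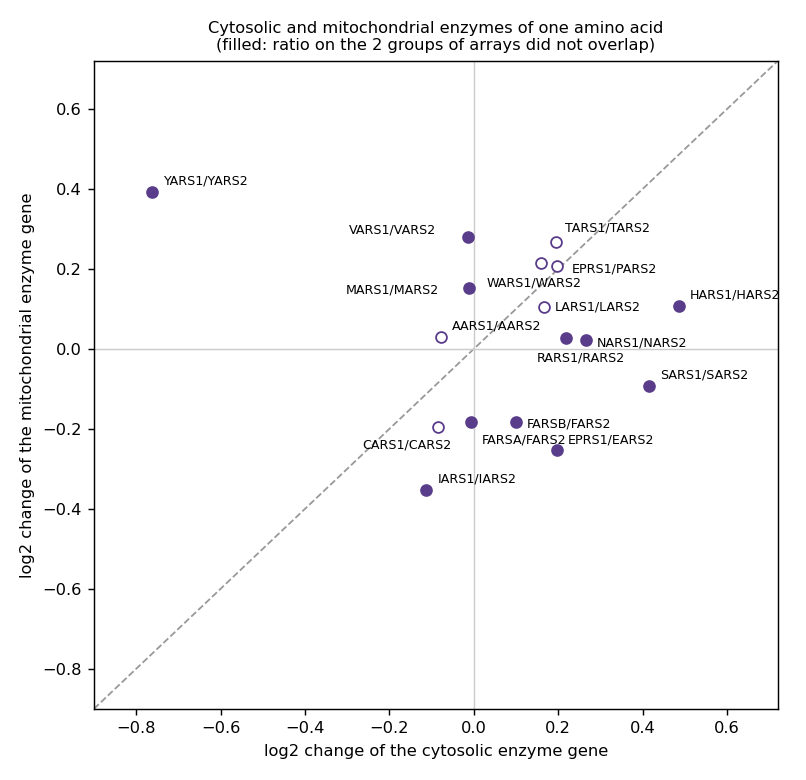
Log2 change of the mitochondrial enzyme gene against that of the cytosolic enzyme gene for 17 pairs that serve the same amino acid, the dashed line marking equal change; filled points are the 11 pairs whose ratio did not overlap between the groups of 3 arrays. The tyrosine pair sits alone at the upper left, and 8 filled points lie below the line.

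**Figure D4:**
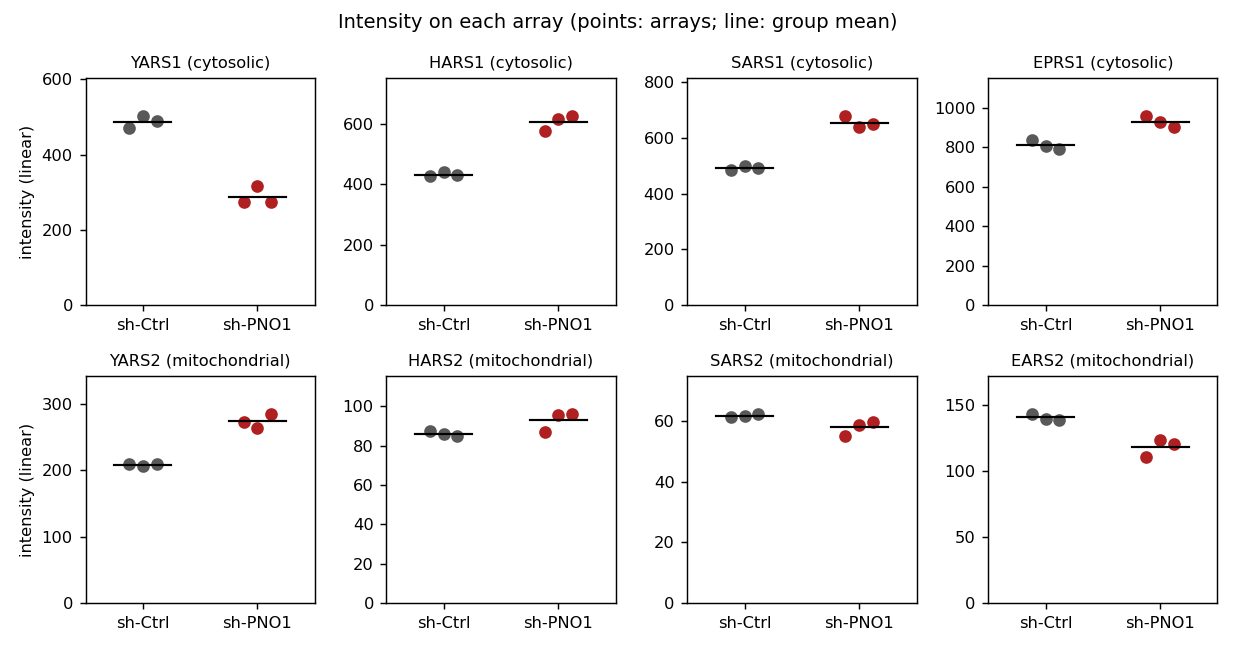
Linear intensity on each of the 6 arrays for 4 cytosolic genes (top) and a mitochondrial counterpart (bottom), with group means as lines and axes from 0. YARS1 drops from 472 to 502 down to 274 to 317 while YARS2 rises from 207 to 210 up to 264 to 285. The brightest probe set of HARS2, shown here, overlaps between the groups although that of HARS1 does not.

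The histidine pair is of interest for its position. HARS1 and HARS2 lie head to head on chromosome 5 and are read in opposite directions. There are 84 bases between their starts, so that they share the stretch between. RefSeq's promoter table for GRCh38.p14 gives the following at chr5:140691361-140691464 on the plus strand, the strand of HARS2, with the bases between the starts in capitals and 10 bases of flank at each end.
HARS1 and HARS2: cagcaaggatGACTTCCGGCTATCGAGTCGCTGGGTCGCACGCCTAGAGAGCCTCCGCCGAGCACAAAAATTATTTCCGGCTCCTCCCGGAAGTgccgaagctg
HARS2 read 87.4, 86.0 and 84.6 on the sh-Ctrl arrays and 86.7, 95.7 and 96.0 on the sh-PNO1 arrays (0.11 ± 0.05 SE, adjusted p = 0.147). The ratio of HARS2 to HARS1 changed by −0.38 ± 0.03 SE, with no overlap between the groups of arrays.

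The C/EBP-ATF composite element, to which ATF4 binds together with C/EBP partners, was searched for as TTGCATCA on both strands in windows from 250 bases before to 50 bases after each start. It occurred in 6 of the 32 member genes that have a window in the table (18.8%), and in 1.08% of all 27305 genes there. All 6 were among the 16 cytosolic genes with a window, and none of the 14 mitochondrial genes held it. The sites are shown with 11 bases on each side, in the direction of the gene, with the match in capitals, since ATF4 is a known regulator of cytosolic synthetase genes.
TARS1: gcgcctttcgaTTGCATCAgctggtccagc
NARS1: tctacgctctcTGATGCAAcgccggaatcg
MARS1: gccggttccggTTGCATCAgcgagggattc
AARS1: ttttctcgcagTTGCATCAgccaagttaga
CARS1: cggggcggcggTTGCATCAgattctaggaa
IARS1: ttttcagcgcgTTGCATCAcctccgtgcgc
The windows are chr5:33440715-33441014 for TARS1 (plus strand), chr18:57621787-57622086 for NARS1 (minus), chr12:57487818-57488117 for MARS1 (plus), chr16:70289457-70289756 for AARS1 (minus), chr11:3057374-3057673 for CARS1 (minus) and chr9:92293648-92293947 for IARS1 (minus). In NARS1 the match is on the opposite strand to the gene.

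Genes with and without the match are given side by side, and the difference between them was not tested. Of the 6 with it, NARS1 and TARS1 rose and 4 did not pass, with changes from −0.11 (IARS1) to 0.26 (NARS1) and a median of −0.04. Of the 10 cytosolic genes with a window but no match 7 rose and 3 did not pass, with changes from −0.07 to 0.49 and a median of 0.18. The wider form TTNCATCA, which contains the first, added GARS1 and YARS2 and stood in 8 of the 32 member genes and 4.46% of all genes. A match is a run of letters in a window and not a bound site, and the missing windows include those of YARS1, LARS1 and VARS1.

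ATF4 and its other targets went both ways. Of 24 genes, a list drawn from textbook knowledge that leaves out the synthetases, 10 rose, 5 fell and 9 did not pass, with a median of 0.08. ATF3, a stress-induced transcription factor, rose by 0.95 ± 0.05 SE (adjusted p = 1.27e-05), DDIT3, also called CHOP, by 0.84 ± 0.08 SE (0.000141) and SESN2, a sestrin, by 0.57 ± 0.04 SE (3.95e-05). SLC7A5, the light chain of a transporter for large neutral amino acids, fell by 0.87 ± 0.05 SE (adjusted p = 8.97e-06). The ATF4 transcript stood at 0.02 (adjusted p = 0.752), and ATF4 is controlled largely through translation, which was not measured.

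Genes that act before and after charging also moved in both directions. Their counts, and those of the ATF4 list, stand beside 20.0% higher and 14.2% lower over all genes, and no list was tested as a whole. Of 24 measured genes of tRNA processing and export 13 rose and 6 fell, with a median of 0.18. RPP40 (0.76) and RPP14 (0.53), subunits of the RNase P that trims the 5′ end of precursor tRNA, CLP1 (0.55), an RNA kinase of the splicing endonuclease complex, and HSD17B10 (0.39), a subunit of the mitochondrial RNase P, rose. Of 17 measured accessories of charging and delivery 5 rose and 3 fell, with a median of 0.05. MTFMT, which formylates mitochondrial initiator methionyl-tRNA, fell by 0.77, and DTD2, a D-aminoacyl-tRNA deacylase, by 0.44. PSTK, the kinase of seryl-tRNA in selenocysteine synthesis, rose by 0.71 and DTD1, another deacylase, by 0.29. Of 31 measured tRNA modification genes 9 rose and 6 fell, with a median of 0.03, among them ELP3 (0.44), the catalytic subunit of Elongator, DUS1L (0.39) and TRIT1 (0.27) as higher and CDK5RAP1 (−0.41), which modifies mitochondrial tRNAs, as lower.

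**Figure D5:**
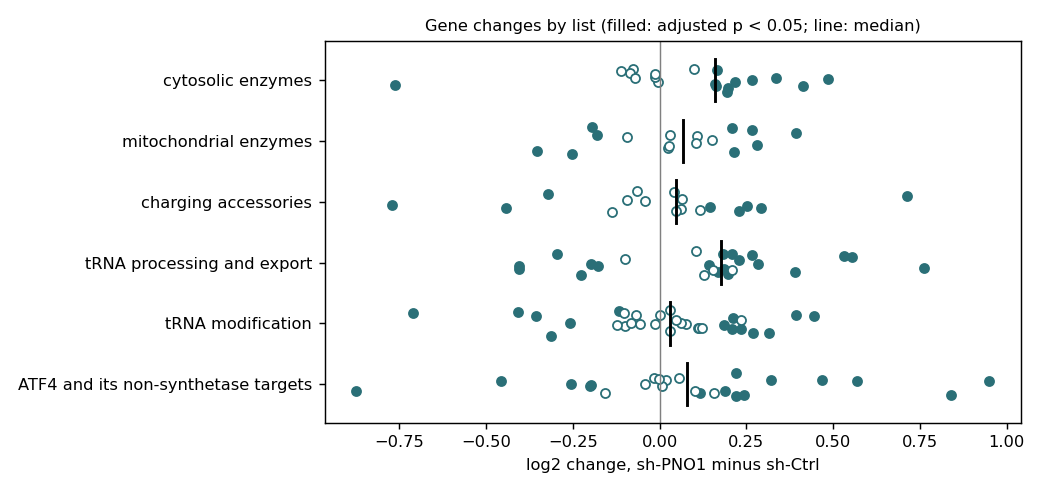
Log2 change of each measured gene in the cytosolic and mitochondrial synthetases and in 4 related lists, with the median of each list as a line; filled points had an adjusted p under 0.05. The cytosolic enzymes hold 1 filled point below 0, at −0.76, while each of the other lists holds between 3 and 6.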

How the data were processed

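The authors deposited linear-scale intensities, 1 per probe set and array, made with RMA per the submitters' processing notes (no version given there). The software is not given in the sources used here. log2 was taken of these deposited intensities here. Since RMA gives the arrays similar distributions, a change is always set against the rest of the array. Array medians lay between 25.6 and 25.9. Groups and replicate numbers came from the sample titles.

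Of 49395 probe sets, 44988 had 1 gene symbol. The brightest probe set by mean log2 stood for each gene. Probe sets naming several genes, 4 of which name a member, were left out. limma 3.58.1 (R 4.3.3) was fitted with lmFit and eBayes over all 6 arrays, once for 18132 genes and once for 49293 probe sets. Adjustment was by Benjamini-Hochberg over each fit. The step was tested on simulated data.

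The members and lists were chosen with earlier results of these data known. Every member may be named. Values on every array were planned for PNO1 and for members that passed with a log2 change of at least 0.4. Those of YARS2, HARS2, SARS2, EPRS1, EARS2, IARS1, AIMP1, QARS1, IARS2, FARS2 and VARS2 were added after values were seen. From each related list the 4 genes with the smallest adjusted p were named, and also ATF4.

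Same-numbered arrays did not deviate together (correlations of −0.05, 0.12 and −0.02), so the numbers were not taken as pairs.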

Additional observations from a re-analysis of the deposited data

How the results depend on the processing

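No member gene that passed changed its direction under any alternative run. Of the 21 that passed, 13 also passed under every alternative in which they had a value, apart from the stricter threshold of 0.01 and the test against a change of 0.5. The other 8 each lost the call at least once. Against a log2 change of 0.5 (treat) 0 member genes, 0 cytosolic, 0 mitochondrial and 0 member probe sets passed, against 451 of all genes. At an unadjusted p under 0.05 limma called 24 member genes, and YARS1 had an adjusted p of 0.0745 in treat. At an adjusted p under 0.01, 24 member probe sets and 9 tRNA modification genes passed. With probe sets averaged the cytosolic median was 0.057, and 13 accessory genes passed. With the most variable probe set the median was 0.091 and 13 accessory genes passed. Without probe sets of suffix _x_at or _s_at 7 of 15 pairs did not overlap. With the replicate number as a block, 20 member genes and 36 member probe sets passed, and among member genes the block ended only the call of PARS2. Leaving out 1 array at a time gave 19 to 23 member genes, 10 to 12 cytosolic, 8 to 10 mitochondrial and 30 to 37 probe sets. Pairs that did not overlap then numbered 11 to 13.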
